A study of Mus musculus with 7 samples.

Results

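*Gzma*, *Gzmb*, *Gzmc*, *Gzmd*, *Gzme*, *Gzmf*, *Gzmg*, *Gzmk* and *Gzmm*, the genes of 9 granzymes, and *Prf1*, the gene of perforin, were followed in CD8+ T cells exposed to small extracellular vesicles (sEV). These 10 genes were taken by symbol as a gene family, with no threshold on their values, from the 55367 genes that were counted. The question of the comparison was how vesicles of a leukemic spleen change CD8+ T cells relative to vesicles of a healthy spleen. CD8+ T cells were sorted from spleens of mice of the Foxp3 YFP/cre strain, whose *Foxp3* locus carries a fluorescent reporter joined to Cre recombinase. The labels describe the donors of all cultures as healthy without an age. The study's methods state a general age range for its mice and the use of both sexes, without naming these donors. Every culture received vesicles at 100 µg/mL for 48 hours, so there was no culture without vesicles. This dose is that of the labels, while the methods of the study set doses by the vesicle content of each kind of spleen. In 4 libraries the vesicles came from healthy spleens (HCME-sEVs, control EVs in the labels), and in 3 libraries from spleens of leukemic Eμ-TCL1 mice (LME-sEVs), a model of chronic lymphocytic leukemia in which an immunoglobulin enhancer drives *TCL1* in B cells. The study's methods describe CD8+ T-cell culture on anti-CD3 with CD28 antibody and IL2 without saying whether it was used for these cultures, and vesicles of such spleens can stem from any cell of the organ.

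Cytotoxic lymphocytes store perforin and granzymes in acidic granules, bound to the proteoglycan serglycin. When a T cell recognizes a target, the granules fuse with its membrane, perforin opens pores in the target cell, and granzymes enter and cut proteins there. Granzyme B cuts after aspartate and activates caspases and BID, granzyme A is a tryptase, and naive CD8+ T cells hold little of either until they are activated.

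RNA was read with a 3′ method (QuantSeq) that counts molecules by a unique molecular identifier (UMI), so a level in CPM (counts scaled to a common library total, here with TMM factors) does not depend on gene length. It does depend on how well each 3′ end is captured, which limits levels compared between genes. Libraries held 3689831 to 5030522 counts, and 3 counts, the smallest level treated as shown, corresponded to 0.582 to 0.807 CPM. Mitochondrial genes took 6.48% to 7.67% of all counts with HCME-sEVs and 6.44% to 6.54% with LME-sEVs. HCME-sEV library 1 stood farthest from the others of its group, its chi-square over genes divided by the degrees of freedom being 4.12 to 6.02 against each of them, with 2.12 to 3.63 for the other pairs within groups. Neither the labels nor the methods state whether the libraries of a group came from separate animals or cultures, so p-values measure the spread between these libraries only.

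The granzyme genes lie in 3 clusters on GRCm38 (GENCODE vM21), and all are annotated as protein coding. *Gzme*, *Gzmd*, *Gzmg*, *Gzmf*, *Gzmc* and *Gzmb* follow in this order on the minus strand of chromosome 14, from *Gzme* at chr14:56117626-56120625 to *Gzmc* at chr14:56231441-56234656 and *Gzmb* at chr14:56258838-56262260. *Gzmc* and *Gzmb* are 24.2 kb apart. *Gzma* (chr13:113093825-113100981) and *Gzmk* (chr13:113171608-113225908) are minus-strand neighbors 70.6 kb apart, *Gzmm* lies at chr10:79689020-79695261 and *Prf1* at chr10:61297833-61304680, both on the plus strand. The body of *Gzmk* overlaps *Esm1* without a shared exon, and an exon of *Gzmf* overlaps *Gm4022* on the opposite strand.

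Promoter windows of the 4 genes whose RNA differed between the vesicle groups are shown because these genes include direct neighbors that went opposite ways. Each window holds the 250 bases before and the 50 bases from the start of the RefSeq transcript (GRCm38.p6), 5′ to 3′ on the strand of the gene. Capitals mark matches on either strand to 5 motifs: TGACGTCA (CRE), TGTGGT (RUNX), TCACACCT (T-box), TGANTCA (AP-1) and TTCNNNGAA (STAT). The windows lie at chr14:56262285-56262584 for *Gzmb*, chr14:56234608-56234907 for *Gzmc*, chr13:113180916-113181215 for *Gzmk* and chr10:79688770-79689069 for *Gzmm*. The RefSeq start of *Gzmb* lies upstream of its GENCODE start. That of *Gzmk* lies beside the starts of the shorter GENCODE transcripts and far inside the longest one, whose promoter is not shown. RefSeq gives 2 windows for *Gzmm*, and the one at the start of the GENCODE gene is shown.
Gzmb: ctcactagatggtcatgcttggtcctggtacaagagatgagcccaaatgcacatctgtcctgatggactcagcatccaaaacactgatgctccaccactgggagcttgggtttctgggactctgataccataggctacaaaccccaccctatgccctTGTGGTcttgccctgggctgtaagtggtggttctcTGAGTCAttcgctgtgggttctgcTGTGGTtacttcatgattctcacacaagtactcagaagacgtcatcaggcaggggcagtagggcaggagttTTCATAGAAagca
Gzmc: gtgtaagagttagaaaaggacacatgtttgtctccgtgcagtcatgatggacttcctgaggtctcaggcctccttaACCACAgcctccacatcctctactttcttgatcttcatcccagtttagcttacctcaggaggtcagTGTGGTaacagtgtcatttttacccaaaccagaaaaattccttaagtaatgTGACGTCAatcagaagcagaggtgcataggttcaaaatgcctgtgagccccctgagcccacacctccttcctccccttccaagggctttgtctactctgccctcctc
Gzmk: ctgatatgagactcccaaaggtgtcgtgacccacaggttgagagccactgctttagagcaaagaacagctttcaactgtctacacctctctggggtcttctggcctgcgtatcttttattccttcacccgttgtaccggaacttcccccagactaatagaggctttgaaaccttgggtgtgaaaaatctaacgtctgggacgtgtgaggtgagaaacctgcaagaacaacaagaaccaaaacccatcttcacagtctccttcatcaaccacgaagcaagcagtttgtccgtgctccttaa
Gzmm: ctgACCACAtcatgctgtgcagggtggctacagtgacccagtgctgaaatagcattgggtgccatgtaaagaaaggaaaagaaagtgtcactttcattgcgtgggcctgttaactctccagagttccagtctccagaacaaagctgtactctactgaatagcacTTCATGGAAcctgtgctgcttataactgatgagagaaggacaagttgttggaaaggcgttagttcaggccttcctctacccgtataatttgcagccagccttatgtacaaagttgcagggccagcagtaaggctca

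The *Gzmb* window held 2 RUNX matches, 1 AP-1 match and 1 STAT match, and the *Gzmc* window held 2 RUNX matches and 1 CRE match. These *Gzmc* matches were not particular to it. The windows of *Gzmf* and *Gzmg*, not shown here, also held 2 RUNX matches and 1 CRE match each. Those of *Gzmd* and *Gzme* held 2 RUNX matches each and no CRE match. RNA of *Gzmf* was near the limit of detection, and *Gzmg* had 0 counts in every library. *Gzmm* had 1 RUNX and 1 STAT match, and none of the 5 motifs was found in this window of *Gzmk*. Among all 32851 RefSeq promoter windows of this length, 16.8% held the RUNX letters, 8.30% STAT, 7.81% AP-1, 1.79% CRE and 1.28% T-box. A stretch of 20 bases in the *Gzmc* window, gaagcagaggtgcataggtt, was found in 5 of all windows, those of *Gzmc*, *Gzmd*, *Gzme*, *Gzmf* and *Gzmg*, and not in that of *Gzmb*. The matches describe sequence and no binding was measured.

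With LME-sEVs, CD8+ T cells held more *Gzmc* and *Gzmk* RNA and less *Gzmb* and *Gzmm* RNA than with HCME-sEVs. *Gzmc* was 1.68-fold and *Gzmk* 3.14-fold higher, whereas *Gzmb* was at 0.784 and *Gzmm* at 0.350 of the level with HCME-sEVs. *Gzma* and *Prf1* did not pass the test. Of the 10 genes, 6 reached a mean of 5 counts per library and were tested among 12623 genes with edgeR's quasi-likelihood test and Benjamini-Hochberg adjustment (FDR), and each of the 6 also reached that mean within either group. The 4 genes past an FDR of 0.05 divide evenly by direction, against a background of 8.96% of all tested genes (3.75% higher and 5.21% lower). *Gzmk* and *Gzmm* also passed a log2 fold change of 1, which 1.28% of all tested genes did. The median log2 fold change of the 6 was 0.24, beside 0.01 over all tested genes.

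**Figure D1:**
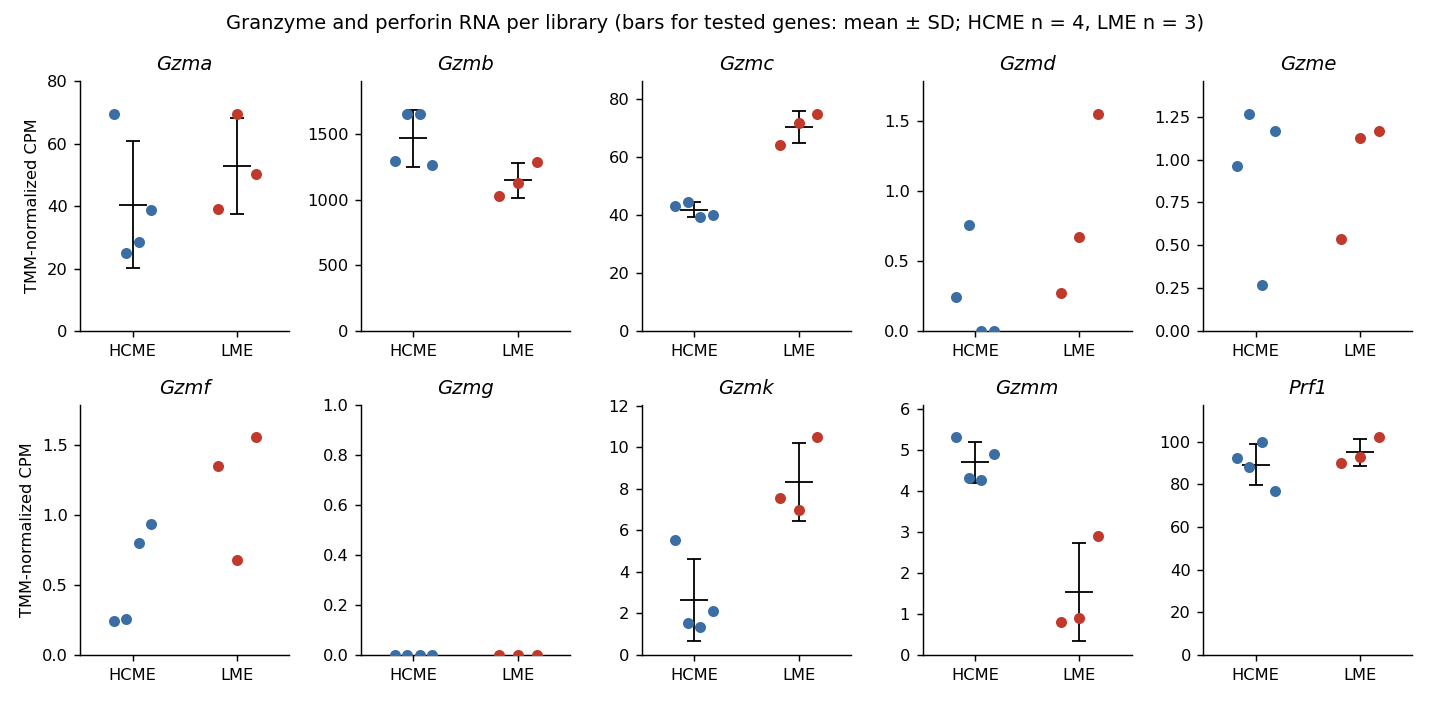
TMM-normalized CPM (linear vertical axes from 0, one per gene) of the 10 genes in the 4 HCME-sEV and 3 LME-sEV libraries; each point is a library, and bars give mean ± SD for the 6 tested genes. The LME-sEV points of *Gzmc* (64.0 to 74.8) and *Gzmk* (6.97 to 10.5) lie above all HCME-sEV points, those of *Gzmm* lie below them, and the other tested genes overlap.

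*Gzmb* encodes granzyme B, the main caspase-activating granzyme, and was by far the most abundant of the 10 transcripts. Its level was 1294, 1646, 1652 and 1265 CPM in HCME-sEV libraries 1 to 4 and 1026, 1129 and 1289 CPM in LME-sEV libraries 1 to 3. The highest LME-sEV library lay just above the lowest HCME-sEV library, so the groups overlapped. HCME-sEV libraries averaged 1465 ± 214 CPM (SD, n = 4) and LME-sEV libraries 1148 ± 132 CPM (SD, n = 3). *Gzmb* fell by 0.35 on the log2 scale (SE 0.10, 95% confidence interval −0.56 to −0.14, FDR = 0.0335 by edgeR's quasi-likelihood test). A two-sided exact permutation test of log2 CPM gave p = 0.143, and 0.0286 is the smallest p that 4 against 3 libraries allow. With scaling by library size only the FDR of *Gzmb* was 0.0655, and it was 0.132, 0.0730, 0.177 and 0.142 without HCME-sEV library 2 or 3 or LME-sEV library 1 or 2. *Gzmb* passed in the other 12 of 17 alternative settings.

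*Gzmc* encodes granzyme C, a chymase-like granzyme of late-activated mouse T cells. It measured 43.1, 44.6, 39.2 and 40.04 CPM with HCME-sEVs and 64.0, 71.5 and 74.8 CPM with LME-sEVs. Every LME-sEV library was above every HCME-sEV library. The means were 41.7 ± 2.54 CPM (SD, n = 4) and 70.1 ± 5.53 CPM (SD, n = 3). *Gzmc* rose by 0.75 on the log2 scale (SE 0.098, 95% confidence interval 0.55 to 0.96, FDR = 1.3e-04 by edgeR's quasi-likelihood test; two-sided exact permutation p = 0.0286). It stayed under an FDR of 0.05 in all 17 alternative settings, with log2 fold changes between 0.70 and 0.82.

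*Gzmk* encodes granzyme K, a tryptase known from memory and aged CD8+ T cells. The counts were low, at 23, 6, 5 and 9 with HCME-sEVs, compared with 28, 31 and 54 with LME-sEVs. In CPM these were 5.54, 1.52, 1.33 and 2.095 against 7.53, 6.97 and 10.5. All LME-sEV libraries lay above the HCME-sEV libraries, of which library 1 was the highest. *Gzmk* rose by 1.65 on the log2 scale (SE 0.36, 95% confidence interval 0.91 to 2.40, FDR = 0.00641 by edgeR's quasi-likelihood test; two-sided exact permutation p = 0.0571). Without LME-sEV library 3 the log2 fold change was 1.44 with an FDR of 0.0633, and without HCME-sEV library 1 it was 2.31.

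*Gzmm* encodes granzyme M, which cuts after methionine or leucine and is best known from NK cells. HCME-sEV libraries had 22, 17, 16 and 21 counts, and LME-sEV libraries had 3, 4 and 15. The levels were 5.30, 4.31, 4.27 and 4.89 CPM with HCME-sEVs and 0.807, 0.899 and 2.91 CPM with LME-sEVs, where the first value is the 3-count floor of its library. No LME-sEV library reached the lowest HCME-sEV library. *Gzmm* fell by 1.51 on the log2 scale (SE 0.40, 95% confidence interval −2.34 to −0.69, FDR = 0.0209 by edgeR's quasi-likelihood test; two-sided exact permutation p = 0.0286). The FDR of *Gzmm* was 0.0507, 0.0768 and 0.123 without HCME-sEV library 4, LME-sEV library 1 and LME-sEV library 2, and without LME-sEV library 3 the log2 fold change was −2.41. Together, *Gzmc*, *Gzmk* and *Gzmm* were the 3 of 6 tested genes whose groups of libraries did not overlap, beside 20.3% of all tested genes.

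*Gzma* encodes granzyme A. It measured 69.6, 25.1, 28.5 and 38.9 CPM with HCME-sEVs and 39.0, 69.4 and 50.2 CPM with LME-sEVs, with overlapping groups. HCME-sEV library 1, at the level of the highest LME-sEV library, set the upper end of its group. The means were 40.5 ± 20.3 CPM (SD, n = 4) and 52.9 ± 15.4 CPM (SD, n = 3), with a log2 difference of 0.38 (SE 0.24, 95% confidence interval −0.11 to 0.87, FDR = 0.359 by edgeR's quasi-likelihood test; two-sided exact permutation p = 0.314). Without HCME-sEV library 1 the log2 difference of *Gzma* was 0.78 with an FDR of 0.00421. With any other library left out its FDR was 0.213 to 0.832, and the log2 difference was 0.14 without LME-sEV library 2. *Gzma* passed in 0 of the 10 alternative settings that kept all libraries.

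*Prf1* encodes perforin, the pore-forming protein through which granzymes reach the target cell. It was at 92.3, 87.9, 99.8 and 77.1 CPM with HCME-sEVs and at 90.1, 92.6 and 102 CPM with LME-sEVs. The groups overlapped, and their means were 89.3 ± 9.49 CPM (SD, n = 4) and 94.9 ± 6.26 CPM (SD, n = 3). The log2 difference of *Prf1* was 0.09 (SE 0.095, FDR = 0.618 by edgeR's quasi-likelihood test; two-sided exact permutation p = 0.40). Its 95% confidence interval in fold ran from 0.930 to 1.22.

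**Figure D2:**
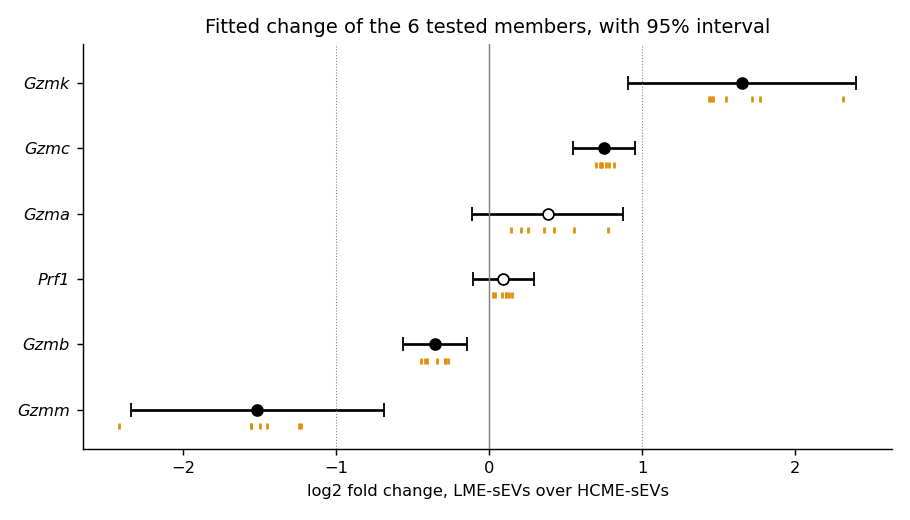
Log2 fold change of LME-sEVs over HCME-sEVs (horizontal axis) for the 6 tested genes, with 95% confidence intervals as bars, filled points for an FDR under 0.05, orange ticks for the values with each library left out in turn, and dotted lines at a log2 fold change of 1 in either direction. *Gzmk* (1.65) and *Gzmc* (0.75) lie to the right of 0, *Gzmb* (−0.35) and *Gzmm* (−1.51) to the left, and the intervals of *Gzma* and *Prf1* include 0.

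The 4 other granzymes followed on chromosome 14 were at or near the limit of detection. *Gzmd* had 1, 3, 0 and 0 counts with HCME-sEVs against 1, 3 and 8 with LME-sEVs, *Gzme* 4, 5, 1 and 5 against 2, 5 and 6, and *Gzmf* 1, 1, 3 and 4 against 5, 3 and 8. *Gzmg* had 0 counts in all 7 libraries, which allows up to 0.582 to 0.807 CPM in each. With a minimum of only 5 counts in total, the log2 differences were 1.72 for *Gzmd* (SE 0.92, FDR = 0.334), 0.07 for *Gzme* (SE 0.64, FDR = 0.977) and 1.07 for *Gzmf* (SE 0.69, FDR = 0.457) by edgeR's quasi-likelihood test, so a difference was not detectable at this depth. The last 300 bases of the *Gzmd* and *Gzme* transcripts were 95.4% identical over 281 bases, and how reads divided between them is uncertain. No other member reached 95% identity over 200 bases with another member. Between the 3′ ends of *Gzmb* and *Gzmc* no alignment was long enough to be kept.

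By level, the order with HCME-sEVs was *Gzmb*, *Prf1*, *Gzmc*, *Gzma*, *Gzmm* and *Gzmk*, followed by the 4 scarce genes. The ranges of *Gzmc* and *Gzma* overlapped there, as did those of *Gzmm* and *Gzmk*. With LME-sEVs the first 4 kept this order, *Gzmc* and *Gzma* again overlapped, and *Gzmk* stood above *Gzmm* without overlap. *Gzmb* supplied 85.6% to 90.9% of the counts of all 10 genes with HCME-sEVs and 82.2% to 84.0% with LME-sEVs. The summed level of the family, 1430 to 1827 CPM with HCME-sEVs and 1230 to 1533 CPM with LME-sEVs, therefore followed *Gzmb*.

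Counts were also set against *Gzmb* of the same library, a ratio that does not depend on the scaling between libraries. *Gzmb* itself was lower with LME-sEVs (0.784 of the level with HCME-sEVs), so a gene at an unchanged level has a higher ratio there. The share of all genes whose ratio did not overlap was not counted. There were 2.37 to 3.33 *Gzmc* counts per 100 *Gzmb* counts with HCME-sEVs and 5.81 to 6.33 with LME-sEVs. For *Prf1* the ratio was 5.34 to 7.13 with HCME-sEVs and 7.91 to 8.78 with LME-sEVs, again without overlap, although the level of *Prf1* itself overlapped. *Gzmk* had 0.0807 to 0.428 counts per 100 *Gzmb* counts against 0.617 to 0.812, and *Gzmm* had 0.258 to 0.410 against 0.0787 to 0.226. The ratio of *Gzma* overlapped, with 1.52 to 5.38 against 3.80 to 6.15.

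**Figure D3:**
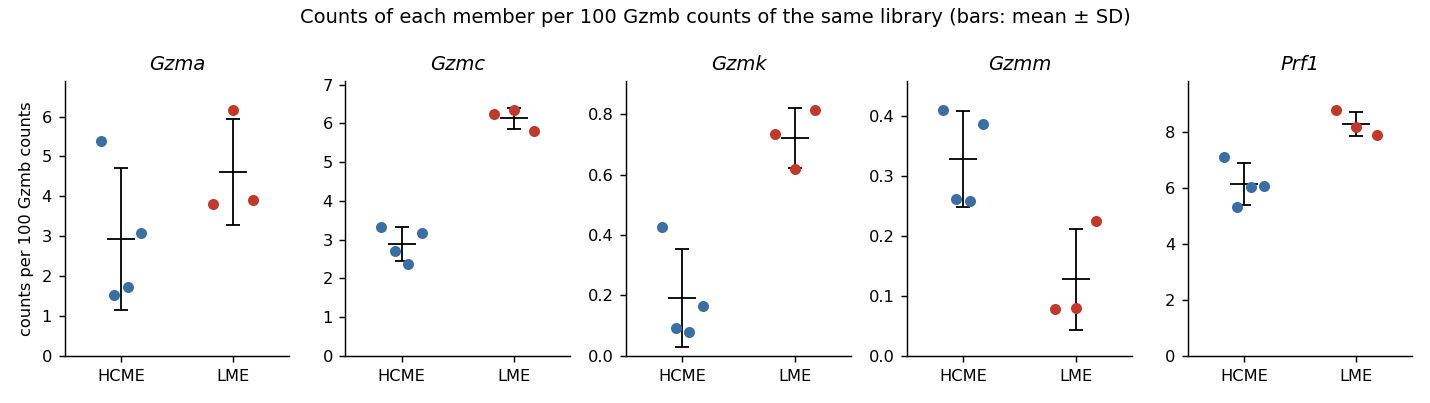
Counts of *Gzma*, *Gzmc*, *Gzmk*, *Gzmm* and *Prf1* per 100 *Gzmb* counts of the same library (linear vertical axes from 0), with a point per library and bars for mean ± SD in 4 HCME-sEV and 3 LME-sEV libraries. The ratio of *Gzmc* is 2.37 to 3.33 with HCME-sEVs and 5.81 to 6.33 with LME-sEVs, and only *Gzma* overlaps between the groups. The denominator *Gzmb* was itself lower with LME-sEVs, which raises the ratio of a gene at an unchanged level.

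In bulk RNA, fewer cells of a type and less RNA per cell cannot be told apart. The label of the cells was met, since all 8 CD8 T-cell markers were detected and summed to 1868 to 2083 CPM with HCME-sEVs and 2140 to 2469 CPM with LME-sEVs, with *Cd3e* and *Cd3g* higher. The 8 NK-cell markers, most of it *Klre1*, summed to 24.0 to 38.7 CPM against 25.6 to 38.2 CPM. None of the 3 tested passed an FDR of 0.05, and *Ncr1*, the defining receptor, had at most 1 count in any library. Among the untested ones, *Tyrobp* had 9 counts in total with HCME-sEVs and 24 with LME-sEVs, and *Klrb1c* had 16 and 5. The 8 basophil and mast-cell markers summed to 16.9 to 46.6 CPM against 44.2 to 60.8 CPM. Of the 7 tested, 3 were higher with LME-sEVs, *Mcpt8*, *Prss34* and *Kit*, beside 3.75% of all tested genes. *Cpa3* leaned the other way (log2 fold change −0.26), and neither it nor *Fcer1a*, *Gata2* or *Hdc* passed. Myeloid markers summed to 1.60 to 4.10 CPM against 4.65 to 9.42 CPM, and CD4 T-cell and Treg markers to 0.964 to 1.60 CPM against 1.35 to 1.36 CPM. The myeloid sums rest on few counts, and of the 8 markers only *Fcgr3* was tested, without passing (FDR = 0.645). *Itgam* had 0, 0, 0 and 1 counts with HCME-sEVs against 6, 8 and 6 with LME-sEVs, whereas *Csf1r* totaled 11 against 9. B-cell markers, most of it *Ighm*, which was higher (FDR = 0.0043), summed to 226 to 268 CPM against 305 to 331 CPM, and plasmacytoid dendritic-cell markers, most of it *Bst2*, which was lower (FDR = 0.000801), to 51.4 to 68.8 CPM against 33.9 to 40.5 CPM. No list was wholly at 0, and the part of these cells in the granzyme differences was not tested.

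The genes that surround perforin and granzymes in the pathway were read from the same test. Among 14 genes of granule assembly and granzyme maturation, 13 were tested and only *Calr* passed, 1 of 13 beside 8.96% of all tested genes. *Calr* is the gene of calreticulin, a chaperone that binds perforin. *Calr* fell from 624 ± 35.7 to 501 ± 39.0 CPM (log2 fold change −0.32, SE 0.077, FDR = 0.0135), a call that was lost without HCME-sEV library 2, LME-sEV library 2 or LME-sEV library 3. The list had 1 higher and 0 lower genes without HCME-sEV library 2, and 2 higher and 1 lower without HCME-sEV library 3. None of the 13 genes of granule exocytosis passed, beside the same 8.96%, and their log2 differences lay between −0.20 and 0.31. The most abundant of them were *Coro1a*, an actin regulator (0.08, FDR = 0.567), and *Rab7*, a small GTPase of late endosomes (−0.03, FDR = 0.867). The median log2 fold change was 0.04 over the assembly genes and 0.05 over the exocytosis genes, near the 0.01 of all tested genes.

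Inhibitors of granzymes moved in both directions, with 1 of 4 tested serpins higher and 1 lower, beside 3.75% and 5.21% of all tested genes. *Serpinb9*, whose product inhibits granzyme B and protects the killer cell itself, fell from 344 ± 43.7 to 230 ± 7.55 CPM (log2 fold change −0.58, SE 0.091, FDR = 0.000641) and passed in all 17 alternatives. *Serpinb6b*, known as an inhibitor of granzyme A in mice, rose from 341 ± 25.1 to 446 ± 68.0 CPM (0.39, SE 0.091, FDR = 0.0117). Without LME-sEV library 2 its log2 difference was 0.26 with an FDR of 0.134, so the call was lost. Of the 2 death ligands, which kill without granules, *Fasl* fell from 27.2 ± 2.21 to 18.7 ± 0.61 CPM (−0.54, SE 0.13, FDR = 0.0119), a call lost without LME-sEV library 2 or LME-sEV library 3.

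Among 12 granzyme substrates, 11 were tested and 4 fell, *Set*, *Apex1*, *Nme1* and *Anp32a*, with log2 fold changes of −0.28, −0.28, −0.36 and −0.28 (FDR = 0.0302, 0.0455, 0.0214 and 0.0404), beside 5.21% of all tested genes that were lower. Their products belong to the SET complex, which granzyme A attacks in target cells, and are also general factors of chromatin, DNA repair and nucleotide metabolism in the T cell. None of the 11 passed without LME-sEV library 1, 2 or 3, each left out alone, and 1 passed without HCME-sEV library 2 or 4. With all libraries, library size only lost *Set*, *Apex1* and *Anp32a*, and upper-quartile factors, a minimum of 5 counts in total and DESeq2 each lost *Apex1* and *Anp32a*. The replicate number as a block also lost *Apex1*. The median log2 fold change over the 11 was −0.28.

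Transcription factors of cytotoxic genes included 3 higher and 2 lower among 13 tested, beside 3.75% and 5.21% of all tested genes, with a median log2 fold change of 0.10. *Prdm1*, encoding Blimp-1 of effector cells, rose from 9.72 ± 2.17 to 18.3 ± 2.51 CPM (0.92, SE 0.18, FDR = 0.0034), and *Tcf7*, encoding TCF-1 of naive and memory cells, rose from a mean of 163 to 229.96 CPM (0.50, SE 0.10, FDR = 0.00493). *Stat5b*, which transmits IL2 signals, rose by 0.29 (FDR = 0.0355). *Tbx21*, encoding T-bet, which drives *Gzmb* and *Prf1*, fell from 101 ± 9.78 to 76.3 ± 5.20 CPM (−0.41, SE 0.095, FDR = 0.010), and *Id2* fell by 0.35 on the log2 scale (FDR = 0.0192). *Prdm1* and *Tcf7* passed in all 17 alternatives. The call was lost without LME-sEV library 2 for *Tbx21*, without LME-sEV library 2 or 3 for *Id2*, and in 6 alternatives, 5 of them with a library left out, for *Stat5b*. The list had 2 higher and 0 lower without LME-sEV library 2, and 2 higher and 1 lower without LME-sEV library 3.

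Of the 12 serine protease genes that neighbor the granzymes on chromosomes 14 and 10, only *Mcpt8* was tested. They include the granzyme gene *Gzmn* between *Gzmg* and *Gzmf*, which had 1 count in all 7 libraries together. *Mcpt8*, a basophil protease at chr14:56082166-56085273, rose from 4.52 ± 3.78 to 12.1 ± 4.63 CPM (1.43, SE 0.41, FDR = 0.0341) with overlapping groups. It was lost with DESeq2 and without HCME-sEV library 4, LME-sEV library 1 or LME-sEV library 2.

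**Figure D4:**
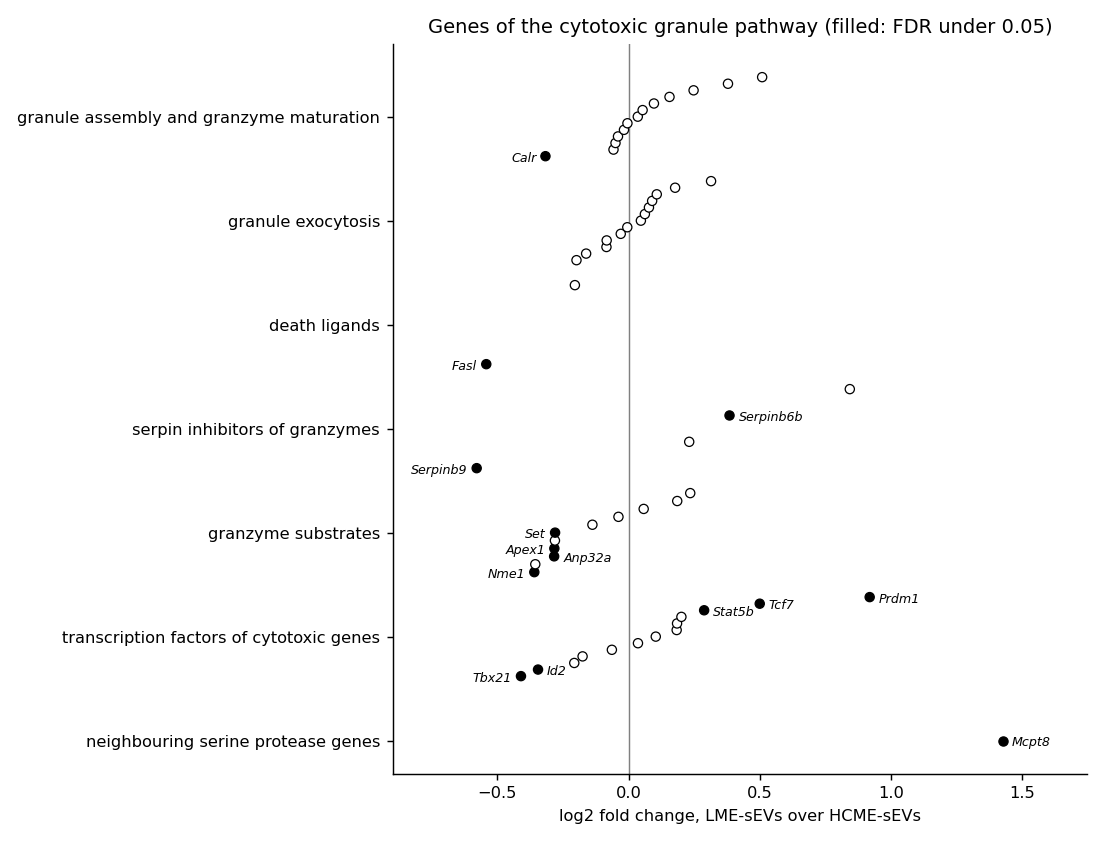
Log2 fold change of LME-sEVs over HCME-sEVs (horizontal axis) for each tested gene of 7 lists of the cytotoxic granule pathway (vertical axis), with named filled points for an FDR under 0.05. No gene of granule exocytosis is filled, 4 of 11 granzyme substrates are filled left of 0, and *Prdm1* (0.92) and *Mcpt8* (1.43) lie farthest right among the filled points.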

How the data were processed

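CD8+ T cells were profiled in 7 libraries by QuantSeq 3′ RNA-seq with UMI. The authors deposited whole-number counts per gene, made with cutadapt 2.10, STAR 2.5.3a on GRCm38, UMI-tools 1.0.0 and featureCounts of Subread 2.0.0. They were neither normalized nor filtered. Annotation release and strand setting are not given in the sources used here. Groups came from the labels, which give 4 control and 3 leukemia libraries (a legend of the study has these sizes reversed).

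Genes averaging 5 or more counts per library were tested with edgeR 4.0.16 after TMM scaling (quasi-likelihood, no covariate, Benjamini-Hochberg adjustment over 12623 genes) in R 4.3.3. Levels are TMM-normalized CPM, and mean ± SD are over libraries. Exact permutation tests used log2 CPM with a prior count of 2. The steps were tested on simulated data. Alternatives were other factors, other filters, DESeq2 1.42.0, limma-voom (limma 3.58.1), the likelihood ratio test, the replicate number as a block, and leaving out each library.

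The members, pathway lists and marker lists were chosen with earlier results of these data known. All members were named, with every listed pathway gene under an FDR of 0.05, or the 2 most abundant of a list with none. Markers, *Gzmn*, *Esm1* and *Gm4022* were named for their identity or place. Positions came from GENCODE vM21, promoters from RefSeq (GRCm38.p6), with 3′ ends compared by blast 2.17.0. Floors of counts cover counting error only, whereas the intervals of fold changes come from the fit and include the spread between libraries.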

Additional observations from a re-analysis of the deposited data

How the results depend on the processing

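The count of the 6 tested members under an FDR of 0.05, 4 as reported, was 3 with library size only and 3 with at least 5 counts in every library, a filter under which *Gzmm* was not tested, and 2 to 5 when 1 library was left out. It was 2 without LME-sEV library 1 or 2 and 5 without HCME-sEV library 1. Members also past a log2 fold change of 1, 2 as reported, were 1 under that filter and 1 to 2 with a library left out. Over all genes, 1131 passed as reported (850 by DESeq2, 1399 by the likelihood ratio test) and 391 to 1305 with a library left out, of which 723, 391 and 458 without HCME-sEV library 2, LME-sEV library 2 and LME-sEV library 3. For an additional log2 fold change of 1, 162 became 83 to 184 with a library left out (83 and 90 without LME-sEV library 2 and LME-sEV library 3). The share of higher genes among the calls was 41.8%, and 56.9% with library size only, where the median gene shifted to 0.06. *Rab7* (−0.03 as reported) was at 0.015 with library size only and at −0.056 to 0.012 with a library left out, positive without LME-sEV library 3. The causes were not tested. Same-numbered libraries had deviations correlated at 0.0721, 0.155 and 0.0268, and differently numbered libraries of the 2 groups at −0.206 to 0.0803. These values do not settle whether the numbers pair the libraries. With the replicate block, in which HCME-sEV library 4 carries no contrast, 1454 genes passed, 179 with a log2 fold change beyond 1, and 4 and 2 members did. Counts of 3 to 54 per library limit *Gzmk* and *Gzmm*.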

Other observations

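The transcripts whose levels followed the granzymes most closely were named by Pearson correlation of log2 CPM over the 7 libraries, among genes averaging 20 or more counts. These correlations are descriptive, since 7 points share the group difference and the library, and many genes were compared. *Gzmb* was most like *Gm25517* (0.978), *Lpgat1* (0.974) and *Psmb8* (0.973), an immunoproteasome subunit. *Gzmc* was most like *Lsr* (0.981), *Gcdh* (0.981) and *Snapc3* (0.980). *Gzmk* was most like *Zbtb38* (0.982), *Myl4* (0.977) and *Csnk2b* (0.968). *Gzmm* was most like *Rbm10* (0.970), *2010204K13Rik* (0.965) and *Atf3* (0.964), a stress-induced transcription factor. No gene appears in more than 1 of these groups of 3. Each group is only 3 of 9694 or 9695 genes searched, so this does not show that the granzymes follow separate genes.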
